A study of Mus musculus with 2 samples.

Results

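Endothelial cells line the inner surface of blood and lymph vessels, and 33 genes that mark them or that they use were compared between 2 gastrocnemius muscles. The genes were listed by name, and a probe was taken for a gene when the platform's annotation gave it that symbol. All 33 were found, each with 1 probe, among 19321 named genes on the arrays, and all 33 lay above background on both arrays. They are 33 of the 18498 genes that were above background on at least 1 array and were therefore compared.

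Each group held 1 female mouse of 10 weeks. The control carried the genotype Wild type:R26-DTA, and the other mouse, here called depleted, Pdgfra-CreER:R26-DTA. Both thus carried the R26-DTA allele, which makes diphtheria toxin A once Cre has acted, and both were given tamoxifen from 9 weeks of age on 5 days in a row and killed 2 days after the last dose. CreER is driven by Pdgfra, a gene of the mesenchymal progenitors that lie between muscle fibres, so the toxin is directed at those cells and not at the endothelium. The control had no CreER, so the effect of CreER itself and that of cell loss cannot be told apart. The study asked which genes differ in muscle that lacks these progenitors. With 1 array per group no test could be made, no spread between animals is known, and each ratio is a difference between 2 arrays.

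As a check of the labels, Pdgfra was 1.91-fold lower on the depleted array after the background correction used here. Its intensities as processed by the authors, a separate scale, were 273.1 in control and 116.6 in depleted muscle. Ckm and Acta1, which mark muscle fibres, lay between 35711 and 65519 processed intensity units over both arrays. The pan-endothelial genes Pecam1, Esam and Tie1 were above background on both. In whole muscle, fewer cells of a type and less RNA per cell cannot be told apart.

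Endothelial cells are held together by adherens and tight junctions, in which VE-cadherin (Cdh5) and claudin-5 (Cldn5) take part. Their identity rests on ETS factors such as Erg and Fli1 and on the SoxF factors Sox7, Sox17 and Sox18. In skeletal muscle most of them form capillaries, where water, oxygen and lipids pass to the fibres, while the endothelium of venules takes up circulating leukocytes through selectins, Icam1 and Vcam1.

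The regulatory sequence before 3 of the genes is shown: Cldn5 because it had the highest ratio described below, Aqp1 because it had the lowest after the background correction used here, and Egfl7 as 1 of the 8 genes that were higher under all 8 ways of processing the arrays. Each run holds the 250 bases before the start of transcription in RefSeq (GRCm38.p6, plus strand, 5′ to 3′): chr16:18776597-18776846 for Cldn5, chr2:26580833-26581082 for the first of 3 starts of Egfl7 and chr6:55336049-55336298 for Aqp1. Capitals mark AGGAAG or CGGAAG on either strand, a core that ETS factors can bind.
Cldn5: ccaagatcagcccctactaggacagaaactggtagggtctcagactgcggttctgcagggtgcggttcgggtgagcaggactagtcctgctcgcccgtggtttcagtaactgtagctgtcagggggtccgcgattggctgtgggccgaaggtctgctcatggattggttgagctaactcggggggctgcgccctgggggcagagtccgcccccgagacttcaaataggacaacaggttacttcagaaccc
Egfl7: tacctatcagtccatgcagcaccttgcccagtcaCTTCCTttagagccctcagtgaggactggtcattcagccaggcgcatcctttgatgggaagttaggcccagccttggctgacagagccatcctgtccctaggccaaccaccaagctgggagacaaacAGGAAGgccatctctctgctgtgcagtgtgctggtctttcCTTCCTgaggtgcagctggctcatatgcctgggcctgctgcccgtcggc
Aqp1: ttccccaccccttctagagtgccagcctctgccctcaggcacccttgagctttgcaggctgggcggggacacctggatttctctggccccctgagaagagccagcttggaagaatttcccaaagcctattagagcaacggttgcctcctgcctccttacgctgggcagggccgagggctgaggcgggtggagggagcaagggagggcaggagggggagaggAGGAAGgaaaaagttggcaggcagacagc
The core was found 3 times for the start of Egfl7 shown, 1 time for Aqp1 and 0 times for Cldn5. At the other starts of Egfl7 it was found 1 and 0 times. RefSeq promoters were at hand for 17 of the 33 genes, with 25 starts, of which 12 (48.0%) held the core, against 39.2% of the 32851 promoters counted. That count left out 1 chromosome. AACAAT, a core that SOX factors can bind and that cannot overlap the ETS core, was found before 2 of the 25 starts and before 9.42% of the promoters counted. Matches of these letters are a description of the sequence, and no binding was measured here.

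Most endothelial genes differed little between the arrays. The log2 ratio of depleted over control (0 is no difference, 1 a doubling) was above 0 for 19 genes and below 0 for 14, with a median of 0.03, against a median of 0.00 over all genes compared. Above 0 were thus 57.6% of the endothelial genes, beside 47.4% of all genes. The quartiles of the 33 ratios were -0.08 and 0.13, and those of all genes -0.06 and 0.06. All genes hold more dim ones, whose ratios lie nearer 0 in this setting. Among genes at or above the median brightness the quartiles were -0.16 and 0.15, and for the 25 endothelial genes there -0.13 and 0.15. A difference of at least 1.5-fold, the size used here to count genes, was found for 1 endothelial gene that was higher, Cldn5, and for 1 that was lower, Aqp1. Over all genes compared, 1.96% were higher and 1.52% lower by that size, so 1 of 33 in each direction (3.03%) is close to that background. Of the genes at or above the median brightness 3.92% were higher and 3.05% lower, beside 4% in each direction for the 25 endothelial genes there. At 2-fold the counts were 0 and 0, beside 91 higher and 79 lower over all genes. Scaling each array to its median in place of quantile normalization gave 3 higher endothelial genes (Cldn5, Pecam1 and Egfl7) and 0 lower, beside 896 higher and 125 lower over all genes in place of 363 and 282.

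The ratios above come from spot intensities whose background was corrected with an offset, which draws dim genes toward 0. The authors also deposited processed intensities, which hold no such offset, and these are printed for each gene below. In them 3 endothelial genes were at least 1.5-fold higher (Cldn5, Selp and Fli1) and 3 at least 1.5-fold lower (Sox7, Sox17 and Aqp1). The background is wider on that scale too, with 9.81% of all genes higher and 7.68% lower by that size, against 9.09% of the endothelial genes in each direction. All 33 genes had the same direction on both scales.

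**Figure D1:**
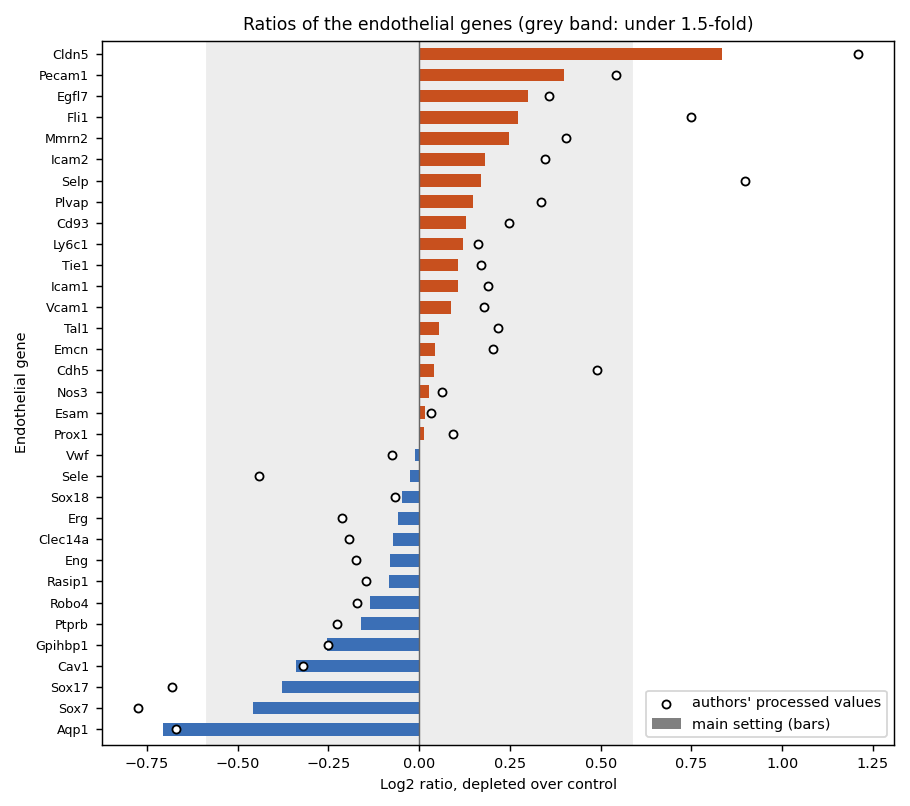
Log2 ratio of depleted over control for each of the 33 endothelial genes, as bars for the offset-corrected spot intensities and open circles for the authors' processed values; the grey band holds differences under 1.5-fold. Bars of only Cldn5 (0.83) and Aqp1 (-0.71) leave the band, while circles of 6 genes do, and the circles of dim genes such as Selp and Cdh5 lie farther out than their bars.

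Among the junction and cell contact genes, Cldn5, the main tight junction protein of endothelium, was 1.78-fold higher. Its processed intensity was 87.5 in the control mouse and 202.4 in the depleted one, a 2.31-fold difference. Of all genes compared, 0.87% had a ratio as high or higher. Pecam1, an adhesion molecule at the borders between endothelial cells that is also made by platelets and leukocytes, went from 140.2 in control to 204.2 in depleted muscle. Its log2 ratio of 0.40 stayed under 1.5-fold, and 4.14% of all genes had as high a ratio. The depleted array was thus the higher one for both genes, but to a different degree.

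The other junction genes were closer together. Icam2, a ligand of leukocyte integrins on resting endothelium, had processed intensities of 62.4 in control and 79.4 in depleted muscle. Esam, a tight junction adhesion molecule, had 186.1 and 190.4. These 2 genes had log2 ratios of 0.18 and 0.02. Cdh5, the cadherin of endothelial adherens junctions, had 4.7 and 6.6, and its spots (39.96 and 43.96) lay just above the background limits of 37.4 and 38.5, so its ratio of 0.04 says little. Ptprb, a phosphatase that binds VE-cadherin and Tie2, had 114.7 and 98.0 and was the only gene of this role with a ratio below 0 (-0.16). The median ratio of the 6 junction genes was 0.11. It was 0.42 in processed values, 0.28 with scaling to the median and -0.24 with the local background subtracted.

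The Cldn5 and Pecam1 values depend on how background is taken. Around the Cldn5 spot the signal was 64.1 in control and 217.5 in depleted muscle, beside spot medians of 105.0 and 252.6. With that local background subtracted, Cldn5 was at -0.05, Pecam1 at -0.62 and Tie1 at -0.63. Across the 27456 spots of an array the local background followed the spot itself (Spearman correlation 0.942 for control and 0.969 for depleted, a description across spots), which is why it was not subtracted in the values given here. Macrophage and monocyte markers, whose cells can also make Pecam1, were above 0 in 14 of 14 genes, with a median of 0.38, and their summed processed intensity was 5586 in control and 9778 in depleted muscle. Ly6c2, 1 of the 14, entered by its brightest probe, at 2248.8 in control and 2492.0 in depleted muscle. Another probe of Ly6c2 had a log2 ratio of -0.02. With the local background subtracted the median of this list was 0.12 and not all 14 were above 0. Lyz2, its highest gene with the offset (1.22), was then at -2.64. None of the 14 was below background. Their part in the Pecam1 value was not tested.

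**Figure D2:**
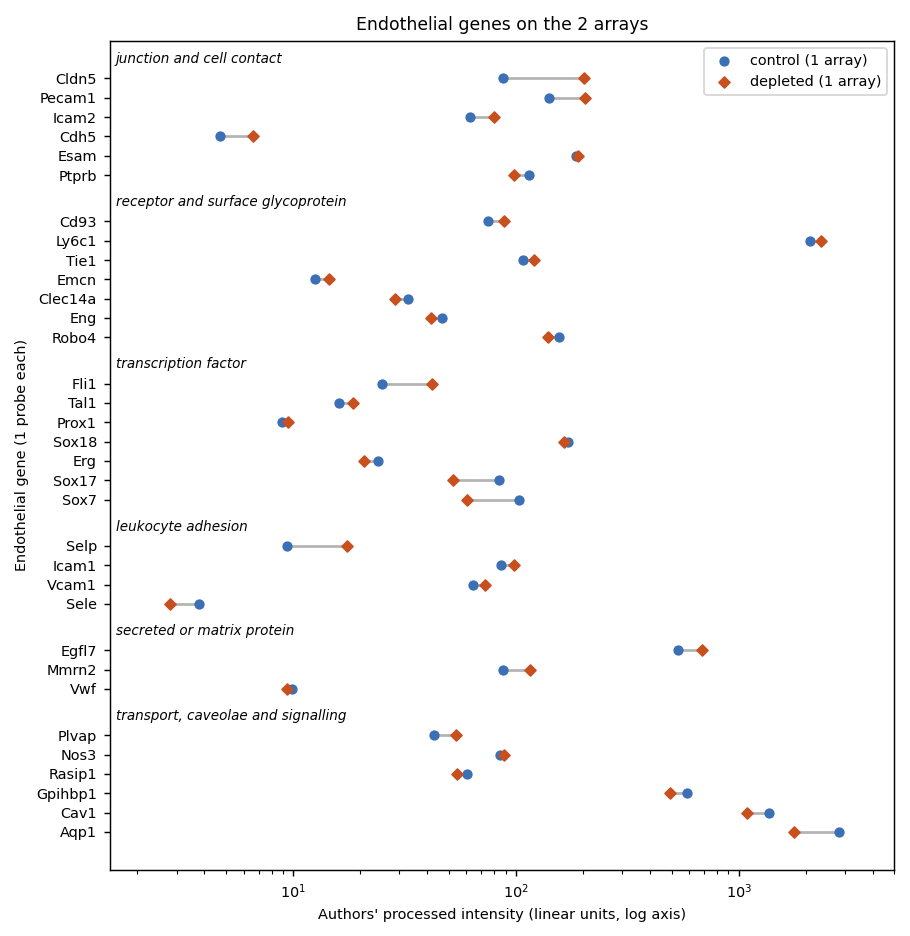
Processed intensity of each of the 33 endothelial genes on the control array (blue circles) and the depleted array (orange diamonds), on a log axis, grouped by role; each gene has 1 probe and each group 1 array. The 2 points of a gene mostly lie close together, and the widest gaps are those of Cldn5, Selp, Fli1, Sox7, Sox17 and Aqp1.

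Receptors and surface glycoproteins lay between -0.13 and 0.13, and 0 of 7 passed 1.5-fold on either scale. Tie1, the orphan partner of the angiopoietin receptor Tie2, had processed intensities of 107.1 in control and 120.5 in depleted muscle. Eng, the TGF-beta co-receptor endoglin, had 46.8 and 41.5. Robo4, a receptor that supports vessel stability, had 156.8 and 139.2. None of these 3 genes was more than 1.13-fold apart on that scale.

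Cd93, a C-type lectin of angiogenic endothelium, had 74.7 in control and 88.6 in depleted muscle, and its relative Clec14a had 32.7 and 28.6. These lectins therefore lay on opposite sides of 0, at 0.13 and -0.07. Emcn, a sialomucin of capillaries and veins, had 12.6 and 14.5. Ly6c1, a GPI-anchored protein of capillary endothelium, had 2096.4 and 2345.4 and a log2 ratio of 0.12. Ly6c2, a close copy of Ly6c1 that monocytes make, is represented by 1 probe with 2248.8 and 2492.0 and by another with 70.6 and 69.8. Probes of this pair can share signal, so the level of Ly6c1 is uncertain.

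The transcription factors were divided. Sox7 and Sox17, SoxF factors of endothelial and arterial identity, were with the offset the 2 lowest of the 33 genes after Aqp1, and in processed values the 2 lowest of all. Sox7 had processed intensities of 103.7 in control and 60.6 in depleted muscle, 1.71-fold lower, and Sox17 had 83.8 and 52.3, 1.6-fold lower. With the offset their log2 ratios were -0.46 and -0.38, under 1.5-fold, and 2.85% and 4.32% of all genes had as low a ratio. Both were lower under all 8 settings tried, from -0.79 to -0.30 for Sox7 and from -0.70 to -0.25 for Sox17. The 8 settings are not independent. Another offset, no correction and subtraction of blanks keep the order of the spots above background on each array. After quantile normalization they therefore give the main direction by construction. Sox18, the third SoxF factor, had 171.6 and 163.9, at -0.05, so the 3 paralogs were not lower to the same degree.

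Fli1, an ETS factor of endothelium that leukocytes and megakaryocytes also make, was higher, with processed intensities of 25.1 in control and 42.2 in depleted muscle. That is 1.68-fold on the processed scale and 0.27 as a log2 ratio with the offset. Erg, the ETS factor closest to it in sequence and more restricted to endothelium, had 24.0 and 20.7, at -0.06. The 2 ETS factors thus lay on opposite sides of 0 with the offset and in processed values. With the local background subtracted, Fli1 was at -0.05 and Erg at -0.04. Beside Fli1, macrophage markers were higher as given above, and platelet and megakaryocyte markers had a median ratio of 0.04, with 5 of 8 above 0, 0 below background and a summed processed intensity of 327.8 in control and 409.0 in depleted muscle. Their part in the Fli1 value was not tested.

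Tal1, a factor of blood and endothelial precursors, had 16 in control and 18.6 in depleted muscle. Prox1, the master factor of lymphatic endothelium that muscle fibres also use, had 8.9 and 9.5. Both were dim, and neither ratio (0.05 and 0.01) was far from 0.

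The adhesion molecules that endothelium shows when inflamed were nearly level. Icam1, which holds rolling leukocytes, had processed intensities of 85.5 in control and 97.6 in depleted muscle, and Vcam1, the ligand of integrin VLA-4, had 64.2 and 72.6. Their log2 ratios were 0.11 and 0.09. Selp, the P-selectin stored in granules of endothelium and platelets, had 9.4 and 17.5, a 1.86-fold difference on the processed scale that shrank to a log2 ratio of 0.17 with the offset. Sele, the E-selectin made only after stimulation, had 3.8 and 2.8, close to the blanks on both arrays. Of the 4 genes 0 passed 1.5-fold with the offset, and 1, Selp, did so in processed values.

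These values can be set beside NF-kB target genes, since that factor switches on the same adhesion molecules. Of 14 listed targets 10 were above 0, 2 of them past 1.5-fold, and none of the 4 below 0 passed that size; the median was 0.11. The monocyte chemokine Ccl2 (4.54) and the neutrophil chemokine Cxcl1 (2.59) were the 2. With the local background subtracted, Ccl2 was at 3.41 and Cxcl1 at 0.37. In processed values 6 of the 14 targets were at least 1.5-fold higher and 2 lower by that size, with a median of 0.50. With the offset, Csf1, a growth factor of macrophages, and Tnfaip3, an inhibitor of NF-kB, came next in size, both at -0.55; in processed values other members of the list were farther from 0. The chemokines and the adhesion molecules therefore did not share the size of their difference with the offset. With the local background subtracted, Vcam1 was at 0.38, beside 0.37 for Cxcl1. Ratios of these lists were not tested against each other.

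Of the secreted and matrix proteins, Egfl7, which endothelium releases into the vessel wall, had processed intensities of 533.3 in control and 683.8 in depleted muscle and a log2 ratio of 0.30. It was higher under all 8 settings, from 0.30 to 0.64, though at least 1.5-fold only under scaling to the median (0.60) and with local background subtracted (0.64). Mmrn2, a matrix glycoprotein that binds Cd93 and Clec14a, had 87.1 and 115.2, at 0.25, but was at -0.28 with the local background subtracted. Vwf, the clotting factor of Weibel-Palade bodies, had 9.9 and 9.4. Of these 3 genes Egfl7 alone was higher under all 8 settings, and Vwf was dim on both arrays.

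Of the genes of transport, caveolae and signalling 4 of 6 were below 0. Aqp1, the water channel of capillary endothelium, had processed intensities of 2826.1 in control and 1777.4 in depleted muscle. It was 1.63-fold lower with the offset and 1.59-fold lower in processed values, and 1.04% of all genes had as low a ratio. Its spots were 2257 and 1931, far above the blanks on both arrays. With the local background subtracted it was at 0.22, the opposite direction, and with scaling to the median at -0.35.

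Aqp1 is also a protein of red cells. Erythroid markers were below 0 in 6 of 6 genes, with a median of -1.38 and 4 at least 1.5-fold lower, and their summed processed intensity was 31842 in control and 5775 in depleted muscle. The largest were the globins Hbb-bt (-3.30), Hbb-bs (-2.47) and Hba-a2 (-2.13), whose probes can share signal, and 0 of the 6 was below background. Their part in the Aqp1 value was not tested.

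Cav1, the coat protein of caveolae, had 1361.2 in control and 1091.0 in depleted muscle, at -0.34. Gpihbp1, which carries lipoprotein lipase to the capillary lumen, had 584.9 and 491.8, at -0.25. With scaling to the median they were at -0.01 and 0.05, and with the local background subtracted at -1.38 and -1.0. Cav1 was thus below 0 under all 8 settings, by an amount that varied widely, and Gpihbp1 changed sign under median scaling. Cav1 is also made by fibroblasts and fat cells. Mesenchymal progenitor markers, the cells at which the toxin was aimed, were below 0 in 14 of 14 genes, with a median of -1.02 and 9 at least 1.5-fold lower. Lum (-1.84), Col1a2 (-1.42) and Dpt (-1.23) were the lowest of that list, its summed processed intensity was 20011 in control and 8727 in depleted muscle, and none was below background. Their part in the Cav1 value was not tested.

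Plvap, which forms the diaphragms of caveolae and fenestrae, had 42.7 in control and 53.9 in depleted muscle, at 0.15. Nos3, the endothelial nitric oxide synthase, had 85.0 and 88.8, at 0.03. Rasip1, a Rap1 effector needed for vessel lumens, had 60.1 and 54.3, at -0.08. These 3 genes were level or nearly so, and the median of the 6 genes of this role was -0.17, or 0.04 with scaling to the median.

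**Figure D3:**
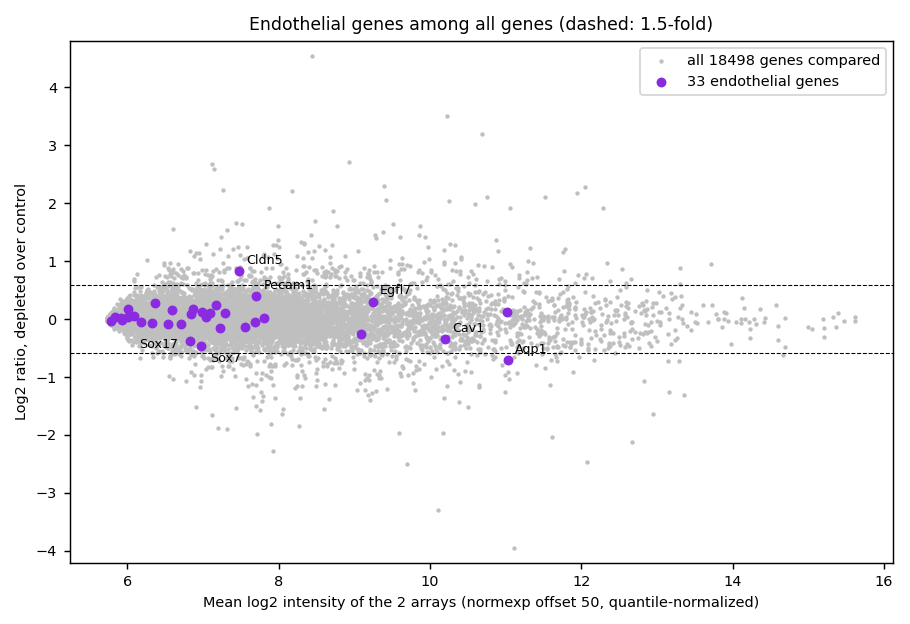
Log2 ratio of depleted over control against the mean log2 intensity of both arrays for all 18498 genes compared (grey) and the 33 endothelial genes (purple); dashed lines mark 1.5-fold and the endothelial genes with the largest ratios are named. Dim genes at the left are drawn toward 0 by the offset, and only Cldn5 and Aqp1 lie beyond the dashed lines.

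Other lists of vessel genes also had medians near 0 with the offset. Of 22 further pan-endothelial genes 12 were above 0 and 10 below, and 1 passed 1.5-fold in each direction, with a median of 0.01. The largest were Mef2c (-0.88), a factor that muscle fibres also use, the ETS factor Ets2 (0.75) and Ramp2 (-0.51), a partner of the adrenomedullin receptor. Capillary genes had a median of 0.01 over 12 genes, with 0 past 1.5-fold. Cd36, a fatty acid receptor that fibres share, was at 0.47, the carbonic anhydrase Car4 at 0.37 and the amino acid transporter Slc7a5 at -0.26. With scaling to the median the capillary list had a median of 0.20. Cd34, in the pan-endothelial list, is also among the mesenchymal progenitor markers given above, so these lists share 1 gene. In processed values 3 of the pan-endothelial genes were higher and 2 lower by 1.5-fold, and 1 of the capillary genes was higher.

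Arterial genes had a median of 0.01 over 12 genes and 0 past 1.5-fold, led by the Notch target Hey1 (-0.28), the semaphorin receptor Nrp1 (-0.17) and the Notch ligand Jag1 (0.10). Venous genes had a median of 0.03 over 8 genes, and 1, the acute phase glycoprotein Lrg1, was at least 1.5-fold higher (0.68). The nuclear receptor of vein identity Nr2f2 was at -0.22 and the chemokine-binding Ackr1 of venules at 0.22. Lymphatic genes had a median of -0.05 over 7 genes and 0 past 1.5-fold, with Pdpn, which mesenchymal progenitors also make, at -0.40, Mmrn1 at 0.22 and Reln at -0.10. In processed values 0 of the arterial, 2 of the venous and 1 of the lymphatic genes were at least 1.5-fold higher, and 0 of these were lower by that size.

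Genes that respond to blood flow had a median of 0.06 over 7 genes, with 0 past 1.5-fold with the offset and 2 higher by that size in processed values. The stress enzymes Hmox1 (0.52) and Nqo1 (0.42), which many cell types make, were these 2, and thrombomodulin (Thbd), which binds thrombin, was at -0.24. With scaling to the median this list stood at 0.24. Mural cells, the pericytes and smooth muscle that wrap the endothelium, had a median of 0.09 over 10 genes, with the smooth muscle genes Tagln (0.68) and Acta2 (0.61) at least 1.5-fold higher with the offset and Myh11 at 0.39. In processed values 4 of the 10 were at least 1.5-fold higher, Myh11 (0.70) among them. Scaling to the median put the mural list at 0.29.

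**Figure D4:**
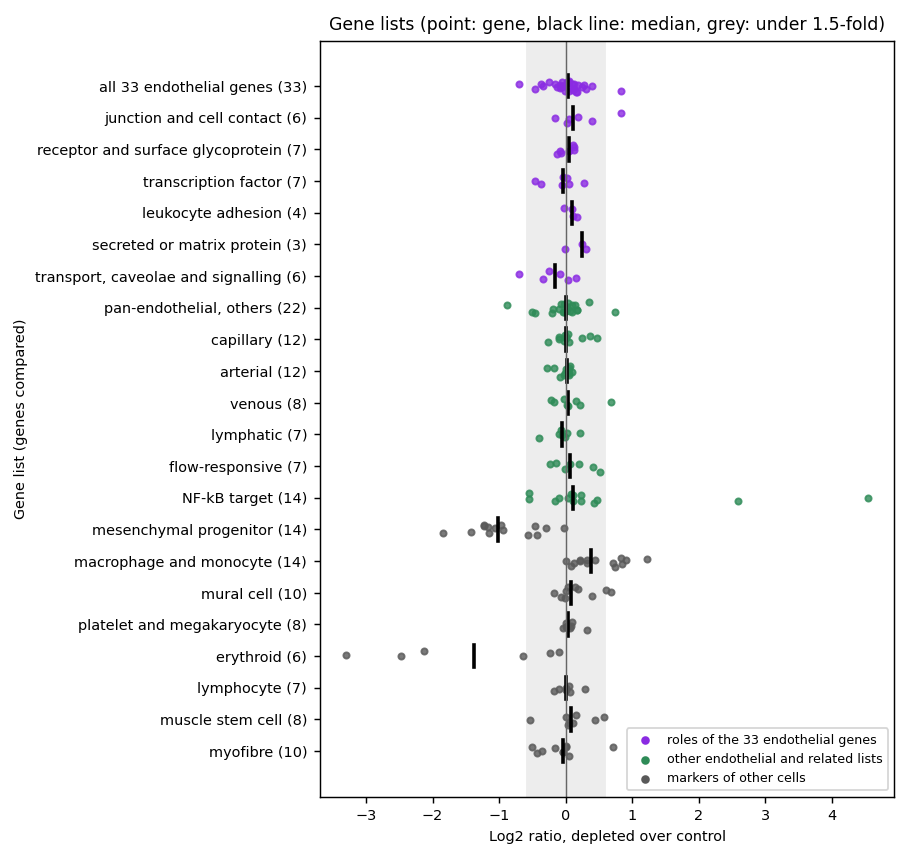
Log2 ratio of depleted over control for the genes of each list, 1 point a gene, with the median of each list as a black line; the 33 endothelial genes and their 6 roles are purple, other vessel and related lists green and markers of other cells grey. Vessel lists centre near 0, whereas the median of mesenchymal progenitor markers is -1.02 and that of erythroid markers -1.38.

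How far a gene's direction held depended on the setting. Another offset, no correction and subtraction of blanks gave the main direction for all 33 genes by construction, as described for Sox7 and Sox17. Leaving aside the subtraction of local background, 17 of the 33 genes were higher and 9 lower under all 7 other settings. With it, 8 were higher and 6 lower under all 8. The 8 were Egfl7, Icam2, Selp, Plvap, Cd93, Ly6c1, Vcam1 and Tal1, and the 6 were Sele, Erg, Clec14a, Cav1, Sox17 and Sox7. Scaling to the median put 22 genes above 0 and local background subtraction 13, in place of 19, and the latter changed the sign of 14 genes. With local background subtracted the 4 genes at least 1.5-fold lower were Cav1, Gpihbp1, Tie1 and Pecam1, and the 1 higher was Egfl7. Over all 18498 genes 982 were lower and 928 higher by that size in this setting. The 7 genes whose sign differed under median scaling were Cdh5, Prox1, Sox18, Rasip1, Robo4, Ptprb and Gpihbp1, all of them under 1.5-fold in both settings. The same counts of direction and of sign changes were not made over all genes. They therefore describe the 33 endothelial genes only and cannot set them apart from other genes.

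**Figure D5:**
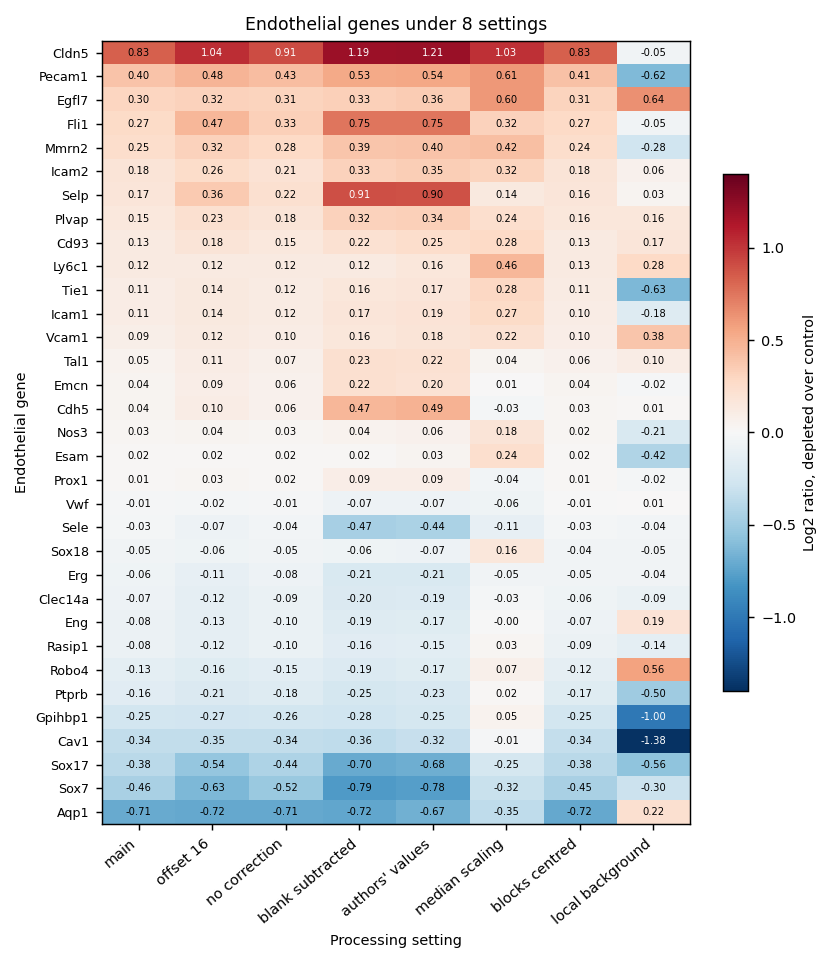
Log2 ratio of depleted over control of each of the 33 endothelial genes (lines) under 8 ways of processing the arrays (columns), red for higher and blue for lower in depleted muscle. Across the 7 columns other than local background, Cldn5 runs from 0.83 to 1.21. The median scaling column has the opposite sign to the main one for 7 genes, and Cav1 is at -0.01 there, beside -0.34 in the main column. The local background column has the opposite sign to the main one for 14 genes, Cldn5, Pecam1, Tie1 and Aqp1 among them.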

How the data were processed

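Total RNA of 1 muscle per group was amplified, coupled to Cy5 and hybridised to 1 array each, per the labels' protocols. The deposited scanner intensities give each spot's median pixel (635 nm), joined from 3 scan gains without background subtraction, per the file headers; the scanner software is not given in the sources used here. The authors' processed intensities have a median of 25 on both arrays and follow the spot on a straight line that reaches 0 at 36.2 on the control and 37.0 on the depleted array, close to the mean of the 2736 blank spots (36.3 and 37.0).

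In the main setting, spots were corrected with normexp (offset 50) in limma 3.58.1 (R 4.3.3), put on the log2 scale and quantile-normalized across 23473 probes. A probe counted as above background when it exceeded the mean of the blanks by 2 SD (37.4 and 38.5), which 92.6% and 92.8% of probes did. A value below background was raised to the lowest one above it on that array, if smaller. A gene with several probes (1283 genes) was given by its brightest. Symbols came from the platform annotation, in which 20690 probes have 1 symbol and 2783 none. Tables used Python 3.11.15, numpy 2.4.6, pandas 2.3.3 and matplotlib 3.10.9, and the normalization was tested on simulated data.

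The number of arrays, 1 per group, limits the precision, and no test was made. The alternatives were another offset (16), no correction, subtraction of blanks or local background, median scaling, the processed values, 3 filters, the mean of probes, a smaller and a larger fold (25% and 2-fold), and, added after seeing the data, centring each of the 24 blocks of the array. Local background was subtracted within normexp with the same offset, a form chosen after the extreme values of a plain subtraction had been seen. All 33 endothelial genes may be named, and of each other list up to 3 genes by size of ratio (4 where 2 were tied), besides Pdgfra, Ckm, Acta1 and Ly6c2. The genes, lists and alternatives were chosen with earlier results of these data known. Of the other lists, lymphocyte markers had a median of 0.01 (Cd2 0.29), muscle stem cell markers 0.08 (Cdh15 0.58) and myofibre genes -0.04 (Tnnt1 0.71).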

Additional observations from a re-analysis of the deposited data

How the results depend on the processing

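No paired analysis was possible because there was a single array in each group. The count of endothelial genes at least 1.5-fold higher, 1 in the main setting, was 3 with the blank spots subtracted, in the authors' processed values and with scaling to the median. Over all 18498 genes it was 363 in the main setting and 1660, 1815 and 896 in these 3. Counted from a 25% difference, 2 endothelial genes were higher and at 2-fold 0, beside 1096 and 91 of all genes. Such counts fall with a larger fold by construction. The count of endothelial genes at least 1.5-fold lower, also 1, was 2 with an offset of 16 and 3 with the blank spots subtracted and in the processed values. It was 4 with the local background subtracted and 0 with scaling to the median. Over all genes the lower count was 282 in the main setting, 460 with an offset of 16 and 1410 with the blank spots subtracted. It was 1421 in the processed values, 982 with the local background subtracted and 125 with scaling to the median. Counted from a 25% difference, 4 endothelial genes were lower and at 2-fold 0, beside 1022 and 79 of all genes. The median ratio, 0.027 in the main setting, was 0.036 with an offset of 16, 0.092 with the blank spots subtracted, -0.044 with the local background subtracted, 0.071 with scaling to the median, 0.094 in the processed values and 0.024 with the blocks centred. Subtraction of the local background reversed Cldn5 (-0.054), Aqp1 (0.22), Pecam1 (-0.62) and Tie1 (-0.63). Of 355 values of single genes, 336 kept their side of 1.5-fold, 14 came to pass it in the same direction, 1 (Aqp1 with scaling to the median) no longer passed it and 4 reversed, a word used here only where the value passed 1.5-fold in at least 1 of the 2 settings. Changes of sign of any size were more frequent: 14 of the 33 genes with the local background subtracted and 7 with scaling to the median. Many of the 355 values could not change. Every endothelial gene had 1 probe above background on both arrays, so the filters and the mean of probes repeated the main value. Of the 336 values they gave 33 (above background on both arrays), 33 (no filter), 25 (median brightness) and 33 (mean of probes). Where no construction gives a difference between settings, the cause was not tested. Signal over background limits Sele, Cdh5, Vwf, Prox1, Selp, Emcn and Tal1, whose processed intensities were all under 20.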
